A study of Rattus norvegicus with 21 samples.

Results

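The cone opsins and the other proteins of cone phototransduction were represented by 10 genes, chosen by symbol: Opn1sw, Opn1mw, Gnat2, Gnb3, Gngt2, Pde6c, Pde6h, Cnga3, Cngb3 and Arr3. All 10 were found among the 19099 genes of the deposited table and all 10 passed the filter on low counts, which kept 16006 genes. RNA came from retinas of Sprague Dawley rats after 6 months of light exposure, in 7 groups of 3 libraries each. The groups were halogen light at level 1000 (Hal1000) and level 200 (Hal200), blue light at level 1000 (Blue1000) and level 200 (Blue200), LED light at level 1000 (LED1000) and level 200 (LED200), and Control. The labels give neither the unit of the levels nor the light that the Control animals received, and for every group they list 8 months, an age, in a field meant for the cell type. The series title names the blood-retinal barrier under dental lighting. Libraries held 30404774 to 35437448 counts.

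Cones are the photoreceptors of daylight and colour vision, and rods serve dim light. In a cone, an opsin that absorbs light activates the G protein transducin (Gnat2, Gnb3, Gngt2), transducin releases the phosphodiesterase PDE6 (Pde6c) from its inhibitory subunit (Pde6h), the fall in cyclic GMP closes the channel of Cnga3 and Cngb3, and arrestin (Arr3) ends the opsin's activity. Rods run the same cascade with their own versions of most of these proteins. Rodents have a short-wavelength opsin (Opn1sw), sensitive to ultraviolet light in the rat, and a medium-wavelength opsin (Opn1mw).

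The start regions of the 2 opsin genes are shown because Opn1mw was called lower in the level 1000 groups and Opn1sw was called in no group. Of the 10 genes, 5 matched a promoter in the RefSeq table of the GRCr8 assembly (Opn1sw, Opn1mw, Arr3, Pde6h and Cnga3). The 250 bases upstream of each opsin's start are printed 5′ to 3′ on the gene's own strand, and capitals mark matches to 3 motifs searched on both strands. Opn1sw lies on the minus strand with its window at chr4:58945826-58946075, and Opn1mw lies on the plus strand with its window at chrX:157056105-157056354.
Opn1sw: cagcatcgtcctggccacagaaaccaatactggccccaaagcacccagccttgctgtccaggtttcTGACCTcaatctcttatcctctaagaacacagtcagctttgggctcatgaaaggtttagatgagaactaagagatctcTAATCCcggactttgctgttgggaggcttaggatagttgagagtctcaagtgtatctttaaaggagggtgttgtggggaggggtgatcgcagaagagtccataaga
Opn1mw: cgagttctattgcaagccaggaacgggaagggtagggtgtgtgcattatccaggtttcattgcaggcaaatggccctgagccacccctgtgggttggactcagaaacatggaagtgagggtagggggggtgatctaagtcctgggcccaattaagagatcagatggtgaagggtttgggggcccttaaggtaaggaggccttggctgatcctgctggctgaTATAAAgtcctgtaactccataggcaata
The core TAATCC of the photoreceptor regulators CRX and OTX2 lay 106 bases upstream of the Opn1sw start, and 6.34% of 33469 promoters of this length held that motif. The nuclear receptor half-site AGGTCA lay 184 bases upstream of Opn1sw on the opposite strand (its reverse complement is in capitals) and was held by 14.1% of promoters. Opn1mw held TATAAA 29 bases upstream of its start, as did 12.9% of promoters somewhere in the window. No match says only that these letters are not in the window.

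Some libraries stood apart in ways that bear on the results. Blue1000 replicate 2 was the lowest of its group for all 10 genes, and Blue1000 replicate 3 lay between its group mates for 10 of 10. Among all genes whose 2 mates differed by over 1.5-fold, Blue1000 replicate 3 lay between them for 80.8%, Hal1000 replicate 3 for 78.4%, LED1000 replicate 2 for 86.0%, Blue200 replicate 2 for 76.1% and Hal200 replicate 2 for 72.4%, beside 39.4% to 63.1% for the other 16 libraries. Whether any of these 5 was mixed from its mates was not tested, and a group that held such a library would have fewer than 3 independent samples. Lens transcripts were highest in Blue200 replicate 1, Control replicate 3 and LED200 replicate 1, at 3673 to 8983 summed CPM over 10 lens genes. These are the 3 lens-rich libraries named below. Blue1000 replicates 1 and 3 followed, at 2093 and 1113, and stayed in the fits without those 3. CPM is each library's counts brought to one total. For single genes it was also scaled by the TMM method, and for sums over a list it was not.

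Rod transcripts give the setting. The 9 rod counterparts of these genes (Sag, Gnat1, Gnb1, Gngt1, Pde6a, Pde6b, Pde6g, Cnga1 and Cngb1) took 0.0725 ± 0.00539% of counts in Hal1000, 2.16 ± 0.503% in Hal200, 0.0649 ± 0.00641% in Blue1000, 0.0712 ± 0.00470% in Blue200, 0.0713 ± 0.00163% in LED1000 and 0.108 ± 0.0502% in LED200, against 3.34 ± 0.241% in Control (SD, n = 3 each). In all light groups but Hal200 all 9 were lower than in Control by edgeR's test, with medians of the log2 fold change from -7.54 to -5.56. Over all genes tested, 25.7% to 26.9% were lower in those groups. In Hal200 only Gnb1 was called lower, where 4.6% of all genes were, and the median was -0.64. In bulk retina, fewer cells of a type and less RNA per cell cannot be told apart.

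The cone genes did not share this pattern, and with TMM scaling Gnat2, Gnb3 and Gngt2 were higher in every light group while Opn1mw, Pde6h and Arr3 were lower in Hal1000 and Blue1000. Their summed CPM was 947 ± 8.16 in Hal1000, 1099 ± 64.4 in Hal200, 910 ± 138 in Blue1000, 1048 ± 125 in Blue200, 1175 ± 79.4 in LED1000 and 1156 ± 174 in LED200, against 672 ± 33.5 in Control (SD, n = 3 each). Gnb3 and Gnat2 made up most of each of these sums. Their TMM-scaled means, in that order, were 443 and 283 CPM in Hal1000 and 447 and 261 CPM in Blue1000. In Control they were 342 and 160 CPM. A higher sum therefore does not mean that the set as a whole rose. The members' median changes, given below, were negative in Hal1000 and Blue1000. Genes were called where the adjusted p of edgeR's quasi-likelihood test was under 0.05. In Hal1000 against Control 3 members were called higher and 3 lower, where 27.3% and 26.8% of all genes tested were (54% in all). In Hal200, 3 were higher and 0 lower (DESeq2 and limma also called 3 each, and 4 had an unadjusted p under 0.05), where 7.25% and 4.6% of all genes were (11.9% in all). Without Hal200 replicate 1, or without Control replicate 2, 1 member was called there. In Blue1000, 3 were higher and 3 lower (27.4% and 26.9% of all genes, 54.3% in all).

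At Blue200, 4 members were higher and 1 lower than in Control (27.7% and 25.8% of all genes, 53.5% in all), and 3 in all were called without Blue200 replicate 1, Control replicate 1 or Control replicate 3. At LED1000, 3 were higher and 1 lower (27.7% and 26.8%, 54.5% in all). There 6 members had an unadjusted p under 0.05, DESeq2 called 4, limma 6 and edgeR on the compared groups alone 8. At LED200, 4 were higher and 0 lower (26.5% and 25.7%, 52.2% in all; 5 members had an unadjusted p under 0.05, and DESeq2 called 4 and limma 6). In these comparisons other than Hal200, 52.2% to 54.5% of all genes were called, so 4 to 6 members of 10 lay near the background. The members' median log2 fold changes were -0.29 in Hal1000, 0.29 in Hal200, -0.36 in Blue1000, 0.25 in Blue200, 0.43 in LED1000 and 0.52 in LED200, beside medians over all genes from -0.01 to 0.08. These comparisons share the 3 Control libraries. Without Blue1000 replicate 3, Hal1000 replicate 3 and LED1000 replicate 2, 6 members were called in Hal1000, 6 in Blue1000 and 3 in LED1000. Without the 3 lens-rich libraries 3 members were called in Blue200.

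Per length, the 10 genes spanned a wide range of levels. In Blue1000 mean FPKM was 296 for Gnb3, 114 for Gnat2, 30.7 for Arr3, 26.2 for Opn1mw, 24.9 for Pde6h and 12.4 for Opn1sw. In Control it was 193 for Gnb3, 59.4 for Gnat2, 50.8 for Arr3, 51.6 for Opn1mw, 41.6 for Pde6h and 8.79 for Opn1sw. Opn1mw and Gnat2 were thus close in Control and far apart in Blue1000. Gngt2 had 5.17 FPKM in Blue1000 and 2.89 in Control, on a gene length of 5419 bases that the FPKM values imply.

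**Figure D1:**
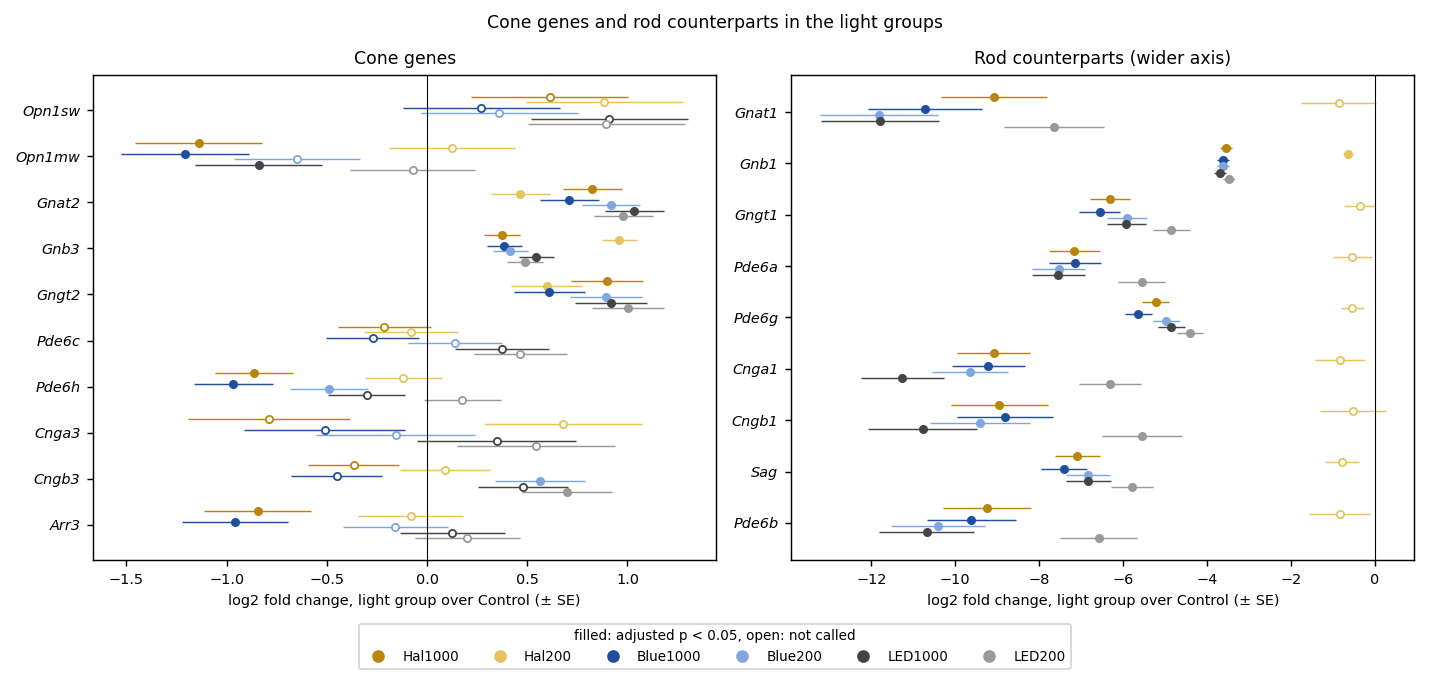
Points are log2 fold changes of each light group over Control with their SE, for the 10 cone genes on the left and 9 rod counterparts on the right, on a wider axis; filled points had an adjusted p under 0.05. Rod counterparts lie far left of 0 in every light group but Hal200, while Gnat2, Gnb3 and Gngt2 lie right of 0 and Opn1mw, Pde6h and Arr3 lie left of 0 in Hal1000 and Blue1000.

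The medium-wavelength opsin Opn1mw was lower than in Control in every level 1000 group, with a negative estimate under all 3 scalings tried. It had 31.9, 25.9 and 28.3 CPM in Hal1000, 40.2, 12.7 and 29.3 CPM in Blue1000, and 39.7, 38.0 and 28.3 CPM in LED1000, against 58.8, 65.5 and 65.6 CPM in Control. None of these 9 libraries reached the lowest Control library. The log2 fold change was -1.14 ± 0.32 (SE, adjusted p = 0.0064) in Hal1000 and -1.21 ± 0.32 (adjusted p = 0.0045) in Blue1000. In LED1000 it was -0.84 ± 0.32 (adjusted p = 0.034), and that call was lost under 11 of the alternatives, among them leaving out any 1 Control library, LED1000 replicate 2 or LED1000 replicate 3, with adjusted p from 0.0505 to 0.145. In Blue1000 it was lost where the fit held only the 2 compared groups (adjusted p = 0.0624).

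At level 200 Opn1mw was not called different from Control. It had 81.4, 62.0 and 63.4 CPM in Hal200, 24.7, 48.5 and 47.8 CPM in Blue200, and 55.1, 74.2 and 51.3 CPM in LED200. Hal200 and LED200 overlapped Control, whereas the 3 Blue200 libraries lay below it. The log2 fold changes were 0.12 ± 0.31 in Hal200 (adjusted p = 0.84), -0.65 ± 0.32 in Blue200 (adjusted p = 0.094) and -0.07 ± 0.31 in LED200 (adjusted p = 0.87). In the order of group means, Hal200 at 68.9, Control at 63.3 and LED200 at 60.2 CPM were followed by a gap with no overlap down to Blue200 at 40.3 CPM.

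The short-wavelength opsin Opn1sw was not called in any comparison, and its light group means were all above the Control mean under TMM, whereas scaled to bipolar cell genes its estimates in Hal1000 and Blue1000 were below 0. It had 35.8, 16.7 and 22.5 CPM in Hal1000 and 34.9, 33.7 and 21.97 CPM in Hal200. It had 29.4, 8.35 and 21.5 CPM in Blue1000 and 14.5, 27.1 and 21.5 CPM in Blue200. LED1000 had 29.7, 29.2 and 33.3 CPM and LED200 had 29.1, 37.0 and 25.2 CPM, against 22.6, 11.5 and 14.9 CPM in Control. Blue1000 replicate 2 was the lowest of all 21 libraries for this gene, and the 6 LED libraries all lay above Control. The log2 fold changes were 0.91 ± 0.39 in LED1000 (adjusted p = 0.061) and 0.90 ± 0.39 in LED200 (adjusted p = 0.067). Without Control replicate 1, and under other scalings or fits, both were called, with adjusted p from 0.0125 to 0.036.

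The ratio of the 2 opsins within each library removes the scaling between libraries. On FPKM (a count scaled for library total and gene length), Opn1sw over Opn1mw was 0.743, 0.425 and 0.526 in Hal1000, 0.482, 0.433 and 0.485 in Blue1000, and 0.495, 0.507 and 0.777 in LED1000. It was 0.284, 0.359 and 0.229 in Hal200, 0.389, 0.369 and 0.297 in Blue200, and 0.350, 0.329 and 0.325 in LED200. In Control it was 0.255, 0.116 and 0.151. The 9 libraries at level 1000 ran from 0.425 to 0.777 and the 9 at level 200 from 0.229 to 0.389, with no overlap between the levels.

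Opn1sw made up 29.8% to 43.7% of summed opsin FPKM at level 1000, 18.6% to 28.0% at level 200 and 10.4% to 20.3% in Control. The difference in mean log2 ratio was 0.94 between Hal1000 and Hal200, 0.42 between Blue1000 and Blue200 and 0.79 between LED1000 and LED200. Each had an exact two-sided permutation p of 0.1, the smallest that 3 against 3 libraries allow, and 0.167 after adjustment over 15 comparisons. Against Control the exact p was also 0.1 in every light group except Hal200, where it was 0.2. This ratio was chosen after its values were seen. The summed level of both opsins, in FPKM, was 43.2 ± 8.85 in Hal1000, 77.7 ± 14.9 in Hal200, 38.6 ± 19.6 in Blue1000, 52.1 ± 16.4 in Blue200, 54.7 ± 3.68 in LED1000 and 76.5 ± 16.2 in LED200, against 60.4 ± 1.82 in Control (SD, n = 3 each).

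**Figure D2:**
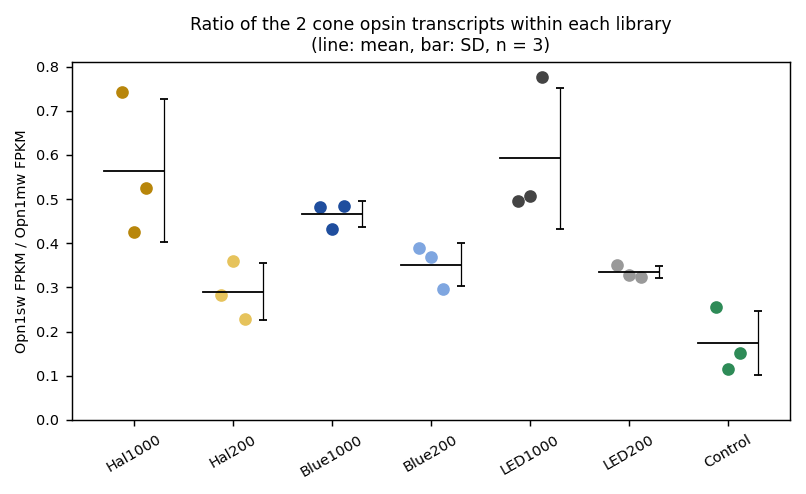
Each point is the FPKM of Opn1sw divided by that of Opn1mw in 1 library, with the group mean as a line and the SD as a bar (n = 3). The level 1000 libraries sit between 0.425 and 0.777, above all level 200 libraries of any source, and Control sits between 0.116 and 0.255.

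Among the 3 transducin subunits, Gnat2, the alpha subunit that binds GTP, was higher in all 6 light groups than in Control under the TMM scaling. It had 281, 289 and 279 CPM in Hal1000, 278, 185 and 199 CPM in Hal200, 296, 236 and 251 CPM in Blue1000, and 279, 350 and 276 CPM in Blue200. It had 310, 330 and 339 CPM in LED1000 and 261, 361 and 321 CPM in LED200, against 184, 145 and 150 CPM in Control. All 18 light libraries lay above the highest Control library, the closest being Hal200 replicate 2 at 184.62 CPM beside Control replicate 1 at 184.41 CPM. The log2 fold changes in 5 groups ran from 0.71 ± 0.15 in Blue1000 (adjusted p = 0.00044) to 1.03 ± 0.15 in LED1000 (adjusted p = 9.4e-06).

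In Hal200 the change of Gnat2 was smaller, at 0.47 ± 0.15 (adjusted p = 0.045), and the call was lost under 8 alternatives, with adjusted p from 0.0501 to 0.320. Those included leaving out Hal200 replicate 1, Control replicate 2 or Control replicate 3. Hal200 replicate 1 had the highest Gnat2 of its group and the fewest counts of the rod alpha subunit Gnat1, at 136311 beside 222737 and 263613 in the other Hal200 libraries. Gnat2 was lower in Hal200 than in Blue200 (-0.45 ± 0.15, adjusted p = 0.023) and than in LED200 (-0.51 ± 0.15, adjusted p = 0.011). Leaving out Hal200 replicate 2 or 3, Blue200 replicate 2 or LED200 replicate 2 each ended the call that rested on it, with adjusted p from 0.0616 to 0.820 over all alternatives that did so.

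Gngt2, the gamma subunit that anchors cone transducin, moved like Gnat2. It had 31.8, 31.8 and 36.1 CPM in Hal1000, 29.5, 25.9 and 25.4 CPM in Hal200, 34.3, 21.9 and 25.4 CPM in Blue1000, and 32.7, 35.4 and 31.1 CPM in Blue200. It had 28.0, 33.5 and 39.3 CPM in LED1000 and 28.2, 44.4 and 34.5 CPM in LED200, against 19.6, 13.9 and 19.9 CPM in Control. Every light library lay above every Control library. The log2 fold changes ran from 0.60 ± 0.18 in Hal200 (adjusted p = 0.037) and 0.61 ± 0.18 in Blue1000 (adjusted p = 0.0072) to 1.002 ± 0.18 in LED200 (adjusted p = 0.00011), and the sign turned in Blue1000 when counts were scaled to bipolar cell genes (-0.025). The Hal200 call was lost without Hal200 replicate 1 or 2 or Control replicate 1 or 2 (adjusted p up to 0.167 over its 7 losses), and the Blue1000 call without Blue1000 replicate 1 (adjusted p = 0.0658).

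The RefSeq spans of Gngt2 and Abi3, an immune-cell gene, overlap, and the strand setting of the counting is not given in the sources used here, so reads of such neighbours cannot be told apart. Abi3 was called higher in all 6 light groups, with log2 fold changes from 1.14 to 1.73, and averaged 3.84 to 5.78 CPM in them, against 1.74 ± 0.763 CPM in Control (SD, n = 3). The summed CPM of 10 microglial markers was 223 in Hal1000, 144 in Hal200, 167 in Blue1000, 148 in Blue200, 159 in LED1000 and 192 in LED200, against 49.8 in Control. Their part in the Gngt2 values was not tested. The span of Gnat2 overlaps that of Gnai3, which averaged 46.3 to 55.2 CPM in the light groups and 48.0 CPM in Control and was called in none of the 6 comparisons.

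Gnb3, the beta subunit, is made in cones and also in ON bipolar cells, and it was the only one of the 10 with all 3 Hal200 libraries above every other library. It had 617, 686 and 692 CPM in Hal200. Hal1000 had 435, 448 and 446 CPM, Blue1000 had 491, 411 and 438 CPM, and Blue200 had 423, 491 and 455 CPM. LED1000 had 463, 497 and 537 CPM and LED200 had 435, 525 and 478 CPM, against 344, 369 and 312 CPM in Control. The 3 Hal200 libraries lay above the other 18, and the 15 remaining light libraries all lay above Control.

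The log2 fold change of Gnb3 against Control was 0.96 ± 0.09 in Hal200 (adjusted p = 1.2e-05). In the other 5 groups it ran from 0.37 ± 0.09 in Hal1000 to 0.54 ± 0.09 in LED1000 (adjusted p = 0.0014 and 3.8e-05), and scaled to bipolar cell genes it turned negative in Hal1000, Blue1000, Blue200 and LED200. The Hal200 call was lost only where the fit held the 2 compared groups alone (adjusted p = 0.0530), a fit that called 0 of all genes there. Hal1000 was lower than Hal200 by -0.59 ± 0.09 (adjusted p = 4e-05). Hal200 was higher than Blue200 by 0.54 ± 0.09 (adjusted p = 0.0001) and higher than LED200 by 0.47 ± 0.09 (adjusted p = 0.00043), and these 3 calls held under every alternative run. The effect of level on Gnb3 differed between sources, by -0.56 ± 0.12 for halogen minus blue (adjusted p = 0.0034, 20.7% of all genes called) and by -0.64 ± 0.12 for halogen minus LED (adjusted p = 0.0011, 21.4% called).

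Within libraries, Gnb3 over Gng13, a G protein gamma subunit of ON bipolar cells, was 4.03 ± 0.943 on FPKM in Hal200 and 1.58 to 1.98 on average in the other light groups, against 2.62 ± 0.438 in Control (SD, n = 3). Of 16 bipolar cell genes, 13 were called higher in Hal1000, 4 in Hal200, 14 in Blue1000, 13 in Blue200, 12 in LED1000 and 14 in LED200 than in Control. Over all genes tested, 7.25% were higher in Hal200 and 26.5% to 27.7% in the other light groups. In Blue1000, Grik1, a glutamate receptor of OFF bipolar cells, changed by 0.94 ± 0.09, and Isl1 and Vsx1, bipolar cell regulators, by 0.66 ± 0.07 and 0.79 ± 0.09, beside 0.34, 0.35 and 0.49 for the same genes in Hal200. Not every gene of the list rose in each group. Prkca averaged 611 CPM in Blue1000 and 502 CPM in LED1000, against 603 CPM in Control. Trpm1 averaged 1066 CPM in Blue1000 and 628 CPM in LED1000, against 652 CPM in Control. The summed CPM of the 16 genes, without TMM scaling, was 4392 ± 171 in Hal1000, 3231 ± 420 in Hal200 and 4638 ± 214 in Blue1000, against 2774 ± 131 in Control (SD, n = 3 each). Their part in the Gnb3 values was not tested.

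Of the phosphodiesterase subunits, Pde6h, the inhibitory one, was lower in Hal1000 and Blue1000. Pde6c, the catalytic one, was called in no comparison with Control, and the difference between the subunits was not tested. Pde6h had 19.8, 20.2 and 18.3 CPM in Hal1000, 25.3, 12.4 and 16.7 CPM in Blue1000 and 25.8, 27.7 and 22.3 CPM in Blue200, against 37.9, 31.4 and 37.0 CPM in Control. None of these 9 libraries reached Control. Its log2 fold change was -0.87 ± 0.19 in Hal1000 (adjusted p = 0.00099) and -0.97 ± 0.20 in Blue1000 (adjusted p = 0.00038), and both calls held under every alternative run.

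In Blue200 Pde6h changed by -0.49 ± 0.19 (adjusted p = 0.040), a call lost under 9 alternatives (adjusted p from 0.0719 to 0.354), among them leaving out Blue200 replicate 1 or 3 or Control replicate 1 or 3. In the other groups it had 36.8, 33.3 and 27.8 CPM in Hal200, 28.9, 27.5 and 29.8 CPM in LED1000, and 38.0, 50.0 and 32.1 CPM in LED200. Hal200 and LED200 overlapped Control and the 3 LED1000 libraries lay below it, with log2 fold changes of -0.12 ± 0.19, 0.18 ± 0.19 and -0.30 ± 0.19 (adjusted p = 0.74, 0.47 and 0.20, in the order Hal200, LED200, LED1000). Pde6c group means ran from 33.6 CPM in Blue1000 to 56.0 CPM in LED200, with 40.6 CPM in Control, and neighbouring groups overlapped throughout that order.

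The channel subunits were the lowest of the 10 genes per length, with 0.76 FPKM for Cnga3 and 2.41 FPKM for Cngb3 in Control. Cngb3, the modulatory subunit, had 7.71, 5.38 and 6.65 CPM in Hal1000 and 8.85, 3.75 and 6.02 CPM in Blue1000. It had 14.96, 12.3 and 10.4 CPM in Blue200, 12.02, 11.7 and 11.8 CPM in LED1000, and 14.6, 13.4 and 13.3 CPM in LED200, against 8.24, 8.36 and 8.85 CPM in Control. The 9 libraries of Blue200, LED1000 and LED200 all lay above Control, and the 3 Hal200 libraries (7.93, 11.2 and 7.97 CPM) straddled it. The 3 Hal1000 libraries lay below Control, and Blue1000 overlapped it.

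Cngb3 was called higher than Control in LED200 (0.70 ± 0.22, adjusted p = 0.014) and in Blue200 (0.56 ± 0.22, adjusted p = 0.041), and scaled to bipolar cell genes the LED200 change was -0.0026. The Blue200 call was lost without Blue200 replicate 1 or 2 or any 1 Control library, with adjusted p from 0.0663 to 0.988 over its 7 losses. Without Blue1000 replicate 1, Cngb3 and also Pde6c and Cnga3 were called lower in Blue1000 than in Control, with adjusted p up to 0.029. Cnga3, the pore-forming subunit, averaged 1.5 CPM in Hal1000 and 4.2 CPM in Hal200, against 2.6 CPM in Control, and was called in no comparison with Control. The span of Cngb3 overlaps that of another RefSeq gene, for which no value is given here.

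Arr3, the cone arrestin, was called lower than in Control in Hal1000 and Blue1000 under TMM, and also in Blue200 when counts were scaled to bipolar cell genes. It had 46.5, 39.0 and 44.4 CPM in Hal1000 and 54.6, 25.3 and 40.2 CPM in Blue1000, against 79.3, 93.0 and 61.4 CPM in Control. All 6 libraries lay below Control. The log2 fold changes were -0.85 ± 0.26 (adjusted p = 0.013) and -0.96 ± 0.27 (adjusted p = 0.0060), in that order, and the first was lost without Control replicate 2 and under 4 other alternatives (adjusted p from 0.0548 to 0.0706). Arr3 had 85.5, 83.3 and 86.0 CPM in LED1000, 79.8, 123.1 and 65.7 CPM in LED200, 75.9, 64.0 and 80.9 CPM in Hal200 and 62.3, 92.4 and 54.5 CPM in Blue200, all overlapping Control. The span of Arr3 overlaps that of P2ry4, which averaged 47.2 to 54.0 CPM in 5 light groups, 76.0 ± 7.26 CPM in Hal200 and 82.6 ± 10.7 CPM in Control, and was called lower in those 5 groups.

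**Figure D3:**
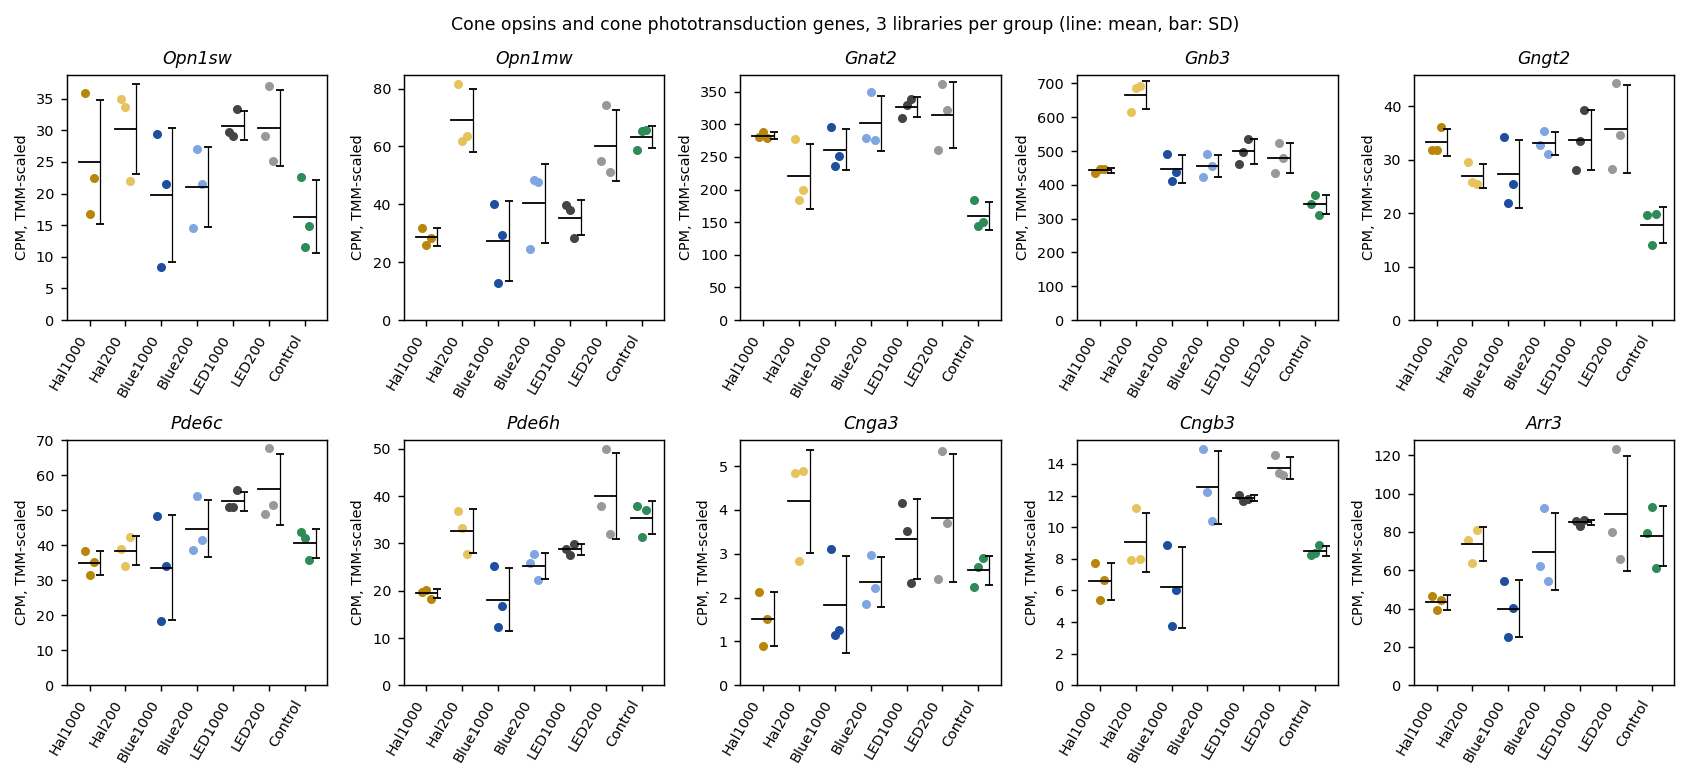
Each panel shows 1 gene and each point is its TMM-scaled CPM in 1 library, with the group mean as a line and the SD as a bar (n = 3). Gnat2, Gnb3 and Gngt2 are above Control in all light libraries, and Blue1000 replicate 2 is the lowest of its group in every panel.

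Ratios within a library set the genes against each other with no scaling between libraries. On FPKM, Opn1mw over Gnat2 was 0.222 ± 0.0260 in Hal1000, 0.691 ± 0.0469 in Hal200, 0.223 ± 0.0935 in Blue1000, 0.292 ± 0.0932 in Blue200, 0.238 ± 0.05005 in LED1000 and 0.420 ± 0.0617 in LED200, against 0.881 ± 0.160 in Control (SD, n = 3 each). The 15 libraries outside Hal200 and Control reached 0.461 at most, and the lowest Control library had 0.697. Arr3 over Gnat2 averaged 0.269 in Hal1000, 0.601 in Hal200, 0.264 in Blue1000, 0.401 in Blue200, 0.457 in LED1000 and 0.498 in LED200, against 0.867 ± 0.226 in Control. Pde6h over Gnat2 averaged 0.217, 0.476, 0.215, 0.265, 0.278 and 0.403 in the same 6 light groups, against 0.703 ± 0.0685 in Control. Every one of the 18 light libraries lay below Control for the Arr3 and the Pde6h ratio, and Hal200 overlapped Control for the Opn1mw ratio. Gnat2, the denominator of these ratios, was itself higher than in Control in every light group under TMM. A lower ratio therefore does not show by itself that the other gene fell. In LED200 Arr3 averaged 89.5 CPM and Pde6h 40.0 CPM, against 77.9 and 35.4 CPM in Control, whereas both were called lower in Hal1000 and Blue1000.

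**Figure D4:**
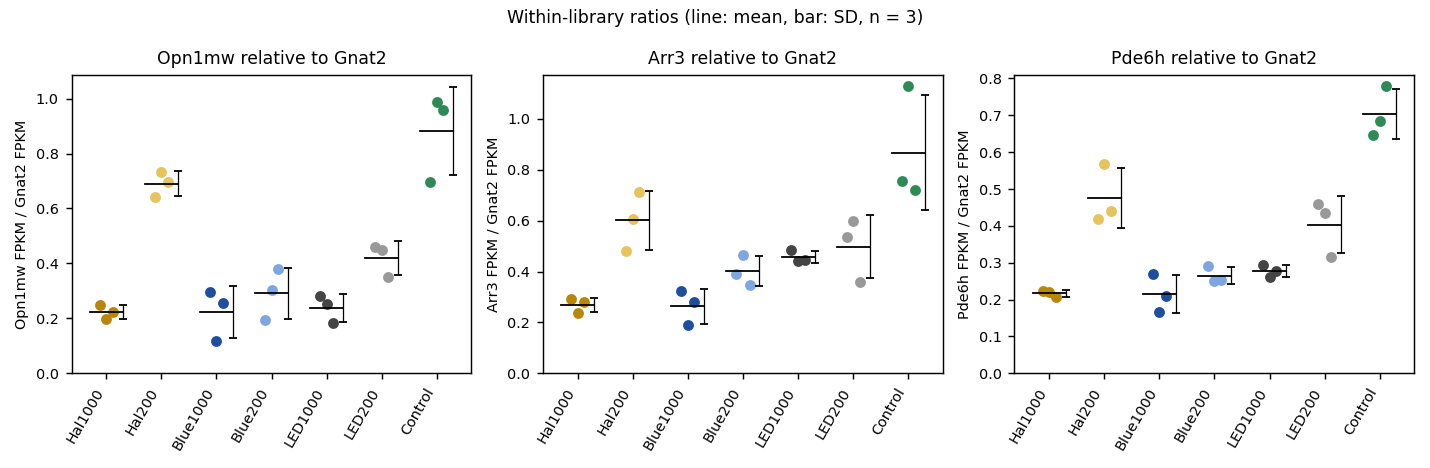
Each point is the FPKM of Opn1mw, Arr3 or Pde6h divided by that of Gnat2 in 1 library, with the group mean as a line and the SD as a bar (n = 3). Control is highest in all 3 panels, Hal200 follows it, and Hal1000 and Blue1000 are lowest, near 0.222 and 0.223 for Opn1mw.

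The level comparisons within a light source tell Hal1000 from Hal200 most clearly. Of the 10 genes 5 were called lower in Hal1000 than in Hal200 and 0 higher, where 18.4% and 16.5% of all genes were (34.9% in all). These were Opn1mw (-1.26 ± 0.32, adjusted p = 0.0056), Pde6h (-0.75 ± 0.19, adjusted p = 0.0056), Cnga3 (-1.47 ± 0.40, adjusted p = 0.0081), Gnb3 and Arr3. Arr3 changed by -0.77 ± 0.26 (adjusted p = 0.034), a call lost under 10 alternatives (adjusted p from 0.0602 to 0.119), among them leaving out any 1 Hal1000 library or Hal200 replicate 1 or 3. Gnat2 was 0.36 ± 0.15 higher in Hal1000 (adjusted p = 0.063) and was called in 6 alternatives, one of them without Hal200 replicate 1. The rod counterparts were also lower in Hal1000 than in Hal200, 9 of 9, with a median of -6.63.

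In the other sources the level 1000 and level 200 groups were not told apart at the threshold. All 10 genes had a lower estimate in Blue1000 than in Blue200, and 0 were called by edgeR, 3 at an unadjusted p under 0.05, 1 by DESeq2 and 0 by limma, where edgeR called 0.0125% of all genes. The share of all genes with a lower estimate is not given here. The members also moved together within groups (Pearson's r from 0.03 to 0.89 once group means were removed), and Blue1000 replicate 2 was the lowest of its group for all 10. The 10 signs are therefore not independent. The largest was Cngb3, at -1.01 ± 0.23 (adjusted p = 0.34), which was called by DESeq2 (adjusted p = 0.015) and by edgeR without Blue1000 replicate 1 (adjusted p = 0.0287). In LED1000 against LED200, 0 were called, 2 at an unadjusted p under 0.05, 0 by DESeq2 and 0 by limma (0.0687% of all genes by edgeR), and Opn1mw had -0.77 ± 0.32 (adjusted p = 0.31).

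Between sources at level 200, Hal200 against Blue200 had 2 genes called, Gnb3 higher and Gnat2 lower (17.6% and 15.9% of all genes, 33.5% in all), and 1 without Blue200 replicate 2, Hal200 replicate 2 or Hal200 replicate 3. Hal200 against LED200 had 3, Gnb3 higher and Gnat2 and Cngb3 lower (16.7% and 15% of all genes, 31.7% in all), and 1 without Hal200 replicate 3 or LED200 replicate 2. Cngb3 changed there by -0.61 ± 0.22 (adjusted p = 0.045) and was lost under 8 alternatives, among them leaving out any 1 LED200 library or Hal200 replicate 1 or 3 (adjusted p from 0.0511 to 0.745). In Blue200 against LED200, 0 were called by edgeR, DESeq2 or limma and 1 at an unadjusted p under 0.05 in edgeR (0% of all genes called).

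Between sources at level 1000, 0 genes were called by edgeR. In Hal1000 against Blue1000, 0 had an unadjusted p under 0.05 and 0 were called by DESeq2 or limma (0.0312% of all genes by edgeR). In Hal1000 against LED1000 all 10 estimates were negative, with 5 at an unadjusted p under 0.05, 1 called by DESeq2 (Arr3) and 0 by limma (0.025% of all genes by edgeR). In Blue1000 against LED1000 all 10 were again negative, with 6 at an unadjusted p under 0.05, 3 called by DESeq2 and 2 by limma (0.262% of all genes by edgeR). Arr3 had -1.08 (adjusted p = 0.084) and Cngb3 -0.93 (adjusted p = 0.082) there, and both were called without LED1000 replicate 1, Cngb3 also without Blue1000 replicate 1. The share of all genes with a negative estimate is not given for these comparisons. Here too the 10 signs are not independent.

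The genes around the cascade came from 2 further lists. Of 13 phototransduction genes that rods and cones share, 12 were tested, and all 12 were lower than in Control in every light group but Hal200. Over all genes tested, 25.7% to 26.9% were lower in those groups. In Blue1000 the retinol dehydrogenase Rdh8 changed by -5.85 ± 0.28 (adjusted p = 2.4e-11), the G protein subunit Gnb5 by -1.93 ± 0.10 (adjusted p = 4.4e-11) and the retinoid carrier Rbp3 by -3.89 ± 0.21 (adjusted p = 1.2e-10). In Hal200, where 11.9% of all genes were called, only Gnb5 was, at -0.51 ± 0.10 (adjusted p = 0.0041), and the list's median was -0.51. Gucy2e did not pass the filter on low counts.

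Of 13 other cone-related genes, 3 were higher and 7 lower than in Control in Hal1000, 0 and 1 in Hal200, 3 and 7 in Blue1000, 1 and 7 in Blue200, 1 and 8 in LED1000, and 4 and 7 in LED200. Over all genes tested, 7.25% were higher and 4.6% lower in Hal200. In the other light groups 26.5% to 27.7% were higher and 25.7% to 26.9% lower. The photoreceptor regulator Crx changed by -3.16 ± 0.16 in Blue1000 (adjusted p = 4.4e-11), and Thrb, the thyroid hormone receptor that sets medium-wavelength opsin expression in mouse, by -1.49 ± 0.18 (adjusted p = 1.2e-06). Mean Thrb was 48.0 CPM in Hal1000, 47.5 in Blue1000 and 44.6 in LED1000. At level 200 it was 103.6 CPM in Hal200, 52.4 in Blue200 and 55.8 in LED200, against 133.8 in Control. Opn1mw was not called in Blue200 or LED200, and a link between Thrb and Opn1mw was not tested. Neurod1, a regulator with roles in photoreceptor upkeep, changed by -2.01 ± 0.12 in Blue1000 (adjusted p = 1.3e-10) and the potassium channel subunit Kcne2 by -1.69 ± 0.11 (adjusted p = 6.7e-10). Other members of the list went the opposite way. Tafa3 averaged 310 CPM in Blue1000 against 173 CPM in Control, and Slc24a2 174 CPM against 89.4 CPM. Rxrg, which restrains short-wavelength opsin in mouse cones, had 0.03 ± 0.22 in Blue1000 (adjusted p = 0.92) and 0.63 ± 0.22 in LED200 (adjusted p = 0.023). In Hal200 only Otx2 was called, at -0.51 ± 0.12 (adjusted p = 0.014). Thrb and Rxrg are named here after their values were seen. Rods and other retinal cells also express several genes of this list.

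Many of the calls against Control, though not those said above to hold under every alternative, changed with what is taken as the common scale. The share of all called genes that were higher was 50.5% to 61.1% over the 6 comparisons with Control under TMM, 69.3% to 82.5% with summed counts alone, and 4.51% to 15.8% with counts scaled to the 16 bipolar cell genes. The last scaling moved the median of all genes by -0.70 to -0.21 on the log2 scale and summed counts by 0.09 to 0.27. With it Opn1mw was called lower in 5 light groups, from -1.84 in Blue1000 to -0.77 in LED200, and Pde6h in the same 5, from -1.60 in Blue1000 to -0.52 in LED200, where its estimate under TMM was 0.18. Gnat2 was then called higher only in Blue200 (0.34) and LED1000 (0.60), Gngt2 only in LED1000 (0.48) and Gnb3 only in Hal200 (0.76).

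Lists of other retinal cells also moved, in summed CPM without TMM scaling, which bears on the size of each rise. TMM factors were 0.868 to 0.894 in Control and 1.02 to 1.08 in the light groups other than Hal200. On the TMM scale the rises of these lists over Control would therefore be smaller. The summed CPM of 10 ganglion cell genes was 2189 in Hal1000, 1499 in Hal200, 2046 in Blue1000, 2062 in Blue200, 2197 in LED1000 and 2049 in LED200, against 985 in Control. That of 10 amacrine cell genes was 4125, 2728, 3919, 3999, 4074 and 3979 in those light groups, against 2135 in Control. That of 5 horizontal cell genes rose less, at 231, 212, 264, 266, 267 and 267 in the same order, against 192 in Control. That of 10 retinal pigment epithelium genes ran from 17.0 to 83.8 over the Hal200 libraries and from 416 to 1444 over the other light libraries, against 20.2, 35.7 and 131 in Control. The part of these lists in the cone gene values was not tested.

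**Figure D5:**
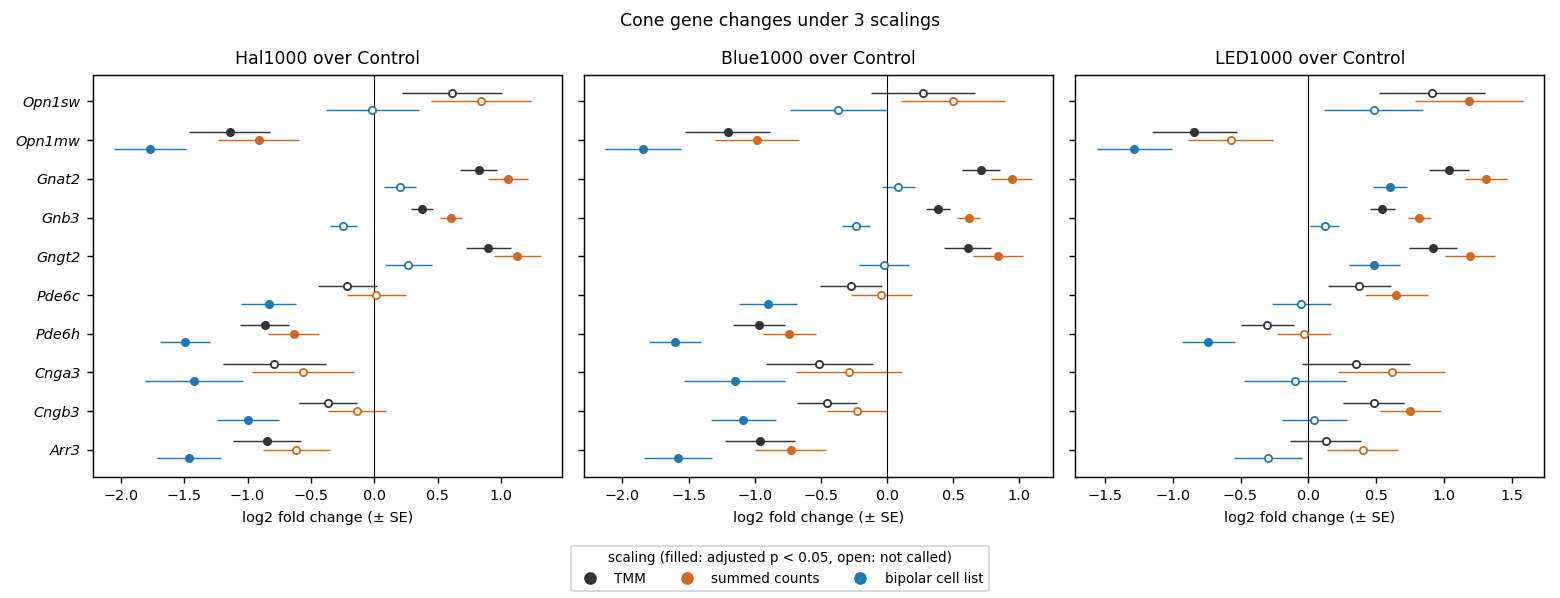
Points are log2 fold changes over Control with their SE for the 10 genes in Hal1000, Blue1000 and LED1000, with libraries scaled by TMM, by summed counts or to 16 bipolar cell genes; filled points had an adjusted p under 0.05. Scaling to bipolar cell genes moves every point to the left, and Opn1mw stays left of 0 under all 3 scalings.

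Across the 21 libraries the genes fell into more than one pattern, as described by Pearson's r of log2 CPM, which shares depth, scaling and group differences between points. Gnat2 and Gngt2 had r = 0.90, Arr3 and Pde6c 0.86, and Opn1mw and Gnat2 -0.28. The opsins had r = 0.44 with each other, and 0.76 once each group's mean was removed. Among 13397 genes, those most like Opn1mw were Pde6h (0.848), Rmnd5a (0.833) and Ubqln1 (0.815), and those most like Arr3 were Pde6h (0.867), Pde6c (0.861) and Hibch (0.809). Those most like Pde6h were Arr3, Opn1mw and Tmem230 (0.780), and those most like Gnat2 were Ankrd29 (0.948), Armcx2 (0.943) and Dlk2 (0.937). Opn1sw had no gene above N4bp3 at 0.753.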

How the data were processed

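Per the labels' protocols, retinal RNA libraries were made with the VAHTS Universal V6 kit. The authors deposited counts per gene for 21 libraries, with no column left unmapped. The authors also deposited FPKM values, which equalled the count over summed counts and 1 fixed length per gene (tolerance 0.001 bases) and so add no measurement. Per the submitters' processing notes, R 3.2.0 was used. Neither the aligner nor the counting tool, nor their strand setting and build, is given in the sources used here. LED in the labels was matched to white light in the design text by elimination.

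Counts were tested with edgeR 4.0.16 in R 4.3.3 (quasi-likelihood F-test, TMM scaling, 1 mean per group over 21 libraries, minimum count 10, minimum total 15), with Benjamini-Hochberg adjustment over 16006 genes in each of 15 comparisons and 3 level differences. Adjusted p-values are from edgeR unless another tool is named. The SE of an edgeR log2 fold change was derived from the test, as its absolute value over the square root of the F statistic. Tests were two-sided, and the script was tested on simulated data. TMM factors ran from 0.868 to 1.08. CPM values of single genes are TMM-scaled, summed CPM values of lists are not, and log2 CPM used a prior count of 2. Whether replicates were separate animals is not stated, and the p-values therefore measure only how these samples spread, which may be technical. Within groups, no pair of libraries agreed within counting noise (21 pairs, chi-square per degree of freedom 7.93 or more). Ratios used FPKM and an exact permutation test.

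The members, gene lists and tests were chosen with earlier results of these data known. All members were named, with list members by smallest adjusted p in Blue1000 and Hal200 against Control and the genes of highest Pearson r. Alternatives were DESeq2 1.42.0, its size factors, summed counts, scaling to bipolar cell genes, no filter, only the compared groups, the replicate number as a block, limma 3.58.1 on log2(FPKM + 1) and log2(FPKM + 0.1), and leaving out libraries. One further rod gene is not reported here.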

Additional observations from a re-analysis of the deposited data

Results flagged for a closer look

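The effect of level on Gnb3 differed between halogen light and the other 2 sources, by the interaction test of edgeR. The log2 difference of level 1000 over level 200 was -0.59 ± 0.09 in halogen light. Halogen minus blue it differed by -0.56 ± 0.12 (adjusted p = 0.0034), where 20.7% of all genes were called, and halogen minus LED by -0.64 ± 0.12 (adjusted p = 0.0011), where 21.4% were. The 3 Hal1000 libraries (435, 448 and 446 CPM) lay below the 3 Hal200 libraries (617, 686 and 692 CPM), while the levels overlapped in blue and in LED light. The cause was not tested.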

How the results depend on the processing

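Of 150 values (10 members in 15 comparisons), 38 were called and 13 of these kept their call under every alternative. Of the 112 uncalled values 36 were called under at least 1 alternative. Over 2600 alternative values, 85 lost a call, 92 gained one and 7 changed sign with a call in 1 of the fits. All 7 came from scaling to bipolar cell genes: Gnb3 -0.24 in Hal1000, -0.23 in Blue1000, -0.16 in Blue200 and -0.21 in LED200, Gngt2 -0.025 in Blue1000, and Pde6h -0.52 and Cngb3 -0.0026 in LED200, each over Control. That scaling also called 1 member in Hal200 and 2 in LED200 against Control, 4 in Hal200 against Blue200, 1 in Hal200 against LED200 and 5 in Blue1000 against LED1000.

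DESeq2 called 1 member in Blue1000 against Blue200, 1 in Hal1000 against LED1000 and 3 in Blue1000 against LED1000. In Hal200 against LED200 5 were called with summed counts alone and 5 with limma at either pseudocount, which called 2 in Blue1000 against LED1000. With only the compared groups in the fit, 0 were called in Hal200 and 8 in LED1000 against Control, 1 in Hal200 against Blue200 and 4 in Hal1000 against LED1000. Without the 3 lens-rich libraries 3 were called in Blue200 against Control. The cause was not tested in any of these.

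With the replicate number as a block, 1 member was called in Hal200 against Control, and no other count moved by over 1.5 times. Same-numbered libraries of 2 groups had correlated deviations with r from -0.50 to 0.52 over 63 pairs (median 0.008, 14 pairs over 0.1), so the numbers were not taken as pairing.

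Leaving out 1 library at a time, the members called against Control were 5 to 6 in Hal1000, 1 to 3 in Hal200, 6 to 8 in Blue1000, 3 to 4 in Blue200, 3 to 4 in LED1000 and 4 to 5 in LED200. They were 4 to 5 in Hal1000 against Hal200, 0 to 1 in Blue1000 against Blue200, 1 to 2 in Hal200 against Blue200, 1 to 3 in Hal200 against LED200, 0 to 2 in Blue1000 against LED1000 and 0 in the others. With 3 libraries a group, no exact permutation test can go below 0.1, and Cnga3, at 0.62 FPKM in Blue1000, was the most limited by depth.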
